A study of Mus musculus with 4 samples.

Results

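To see how open chromatin was arranged at growth factor receptor kinase genes in the 2 cell types of a mouse small cell lung cancer, the ATAC-seq peaks around *Egfr*, *Erbb4*, *Igf1r*, *Pdgfra*, *Pdgfrb*, *Kit*, *Met*, *Ret*, *Fgfr1* and *Fgfr2* were examined. These 10 of 21938 protein-coding genes were taken as a named list, and each was followed over a window that held its gene body with 50 kb on each side (GENCODE M21, mm10). SMC (NCAM high and CD44 low or negative, growing in suspension) and non-SMC (NCAM low and CD44 high, adherent) were untreated cell lines sorted by flow cytometry from lung tumors of the *RP* model, mice of mixed C57Bl/6, Balb-c and S129 background with floxed *Rb1* and *Trp53* that had received Cre by adenovirus. All 4 lines therefore come from tumors that lack both genes by design, which was not checked here. There were 2 SMC and 2 non-SMC lines with 1 library each, and the labels call them paired and number them 1 and 2. A line is a single cell culture, so the spread between lines of a type is the only error available, and with 2 libraries against 2 an exact permutation test cannot give a two-sided p below 0.333. No test was therefore made, and each difference is described by whether the values of the 2 types overlap.

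Receptor tyrosine kinases sit in the plasma membrane, bind a growth factor outside the cell and phosphorylate one another inside it, which starts the RAS and MAP kinase and the PI3 kinase cascades. EGFR and MET are typical of epithelial and migrating cells, the PDGF receptors of mesenchymal cells, and KIT is a receptor known from neuroendocrine small cell lung cancer. ATAC-seq marks DNA that the Tn5 transposase can reach, such as promoters and enhancers, and a peak near a gene measures accessibility and not the level of its transcript.

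On the assembled chromosomes the libraries listed between 91057 (SMC line 1) and 153954 (SMC line 2) peaks, with 115837 and 128710 in the non-SMC libraries. A further 61 to 85 peaks per library lay on other sequences and were left out. The lists reach down to a −log10 p of 2.00, so many of their peaks are weak. The share of peaks at a −log10 q of 5 or more, called strong here, ran from 14.3% in SMC line 1 to 38.0% in non-SMC line 1. Counts were therefore given per 100000 listed peaks, and strength as the percentile of fold enrichment within the library. Numbers of strong peaks, q-values and pileups are not scaled between libraries unless stated. The windows held 116 and 215 peaks in the SMC libraries and 157 and 184 in the non-SMC libraries, in the order of their numbers. Where 4 values are given together below, this order is kept. Among the marker genes, the windows of *Insm1* and *Chga* had more peaks in both SMC lines and those of *Vim*, *Cd44* and *Wwtr1* in both non-SMC lines, whereas *Neurod1* and *Yap1* overlapped. The window of *Ncam1*, one of the sorting markers, had more peaks in both non-SMC lines (32.8 and 24.1 per 100000) than in the SMC lines (13.2 and 24.0), which goes against its label by a small margin.

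Regions found in 1 cell type only, chosen by their strength within that type, are shown first as sequence. Merging the 4 lists gave 491 regions in the windows, of 357570 in the genome, and a region was called non-SMC-only or SMC-only when both libraries of that type and neither of the other had a peak in it. For each class the members' regions with the highest mean percentile that overlap no annotated exon are given, 1 per gene and with *Pdgfrb* left out, as the 201 bases around the summit (mm10, forward strand). In the first set the capitals mark AP-1 sites (TGACTCA or TGAGTCA, which are the reverse complement of each other), the sites of JUN and FOS dimers that receptor signaling activates. A further *Met* region was added after its letters were seen, to show one with an AP-1 site.
*Igf1r* intron, non-SMC-only, chr7:68021867-68022067: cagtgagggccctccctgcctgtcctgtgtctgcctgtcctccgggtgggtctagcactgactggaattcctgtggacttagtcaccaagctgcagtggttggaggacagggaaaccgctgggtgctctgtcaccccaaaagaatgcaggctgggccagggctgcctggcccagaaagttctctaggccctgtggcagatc
*Egfr* upstream flank, non-SMC-only, chr11:16735323-16735523: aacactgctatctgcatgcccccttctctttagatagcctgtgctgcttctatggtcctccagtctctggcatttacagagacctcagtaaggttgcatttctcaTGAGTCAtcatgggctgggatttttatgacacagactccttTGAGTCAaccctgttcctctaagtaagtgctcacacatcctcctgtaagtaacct
*Met* intron, non-SMC-only, chr6:17501631-17501831: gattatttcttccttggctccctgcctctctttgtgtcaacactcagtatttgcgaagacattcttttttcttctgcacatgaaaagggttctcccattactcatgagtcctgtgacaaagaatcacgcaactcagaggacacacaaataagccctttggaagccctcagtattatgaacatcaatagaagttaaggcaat
*Ret* downstream flank, non-SMC-only, chr6:118126692-118126892: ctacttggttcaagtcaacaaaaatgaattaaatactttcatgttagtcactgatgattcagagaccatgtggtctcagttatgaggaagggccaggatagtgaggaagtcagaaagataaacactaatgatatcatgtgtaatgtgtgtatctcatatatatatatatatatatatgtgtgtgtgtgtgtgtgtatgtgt
*Met* intron, non-SMC-only, added, chr6:17554864-17555064: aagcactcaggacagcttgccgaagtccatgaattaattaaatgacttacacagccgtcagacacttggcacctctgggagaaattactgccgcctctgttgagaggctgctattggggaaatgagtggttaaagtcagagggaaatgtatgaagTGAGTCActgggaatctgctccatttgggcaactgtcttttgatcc

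In the SMC-only set the capitals mark the E-boxes CAGCTG and CAGGTG, on either strand, which are letters bound by basic helix-loop-helix factors.
*Ret* downstream flank, SMC-only, chr6:118121670-118121870: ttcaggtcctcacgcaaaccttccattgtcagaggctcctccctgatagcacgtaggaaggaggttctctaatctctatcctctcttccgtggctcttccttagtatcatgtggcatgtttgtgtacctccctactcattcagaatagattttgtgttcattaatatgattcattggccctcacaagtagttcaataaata
*Igf1r* intron, SMC-only, chr7:67996578-67996778: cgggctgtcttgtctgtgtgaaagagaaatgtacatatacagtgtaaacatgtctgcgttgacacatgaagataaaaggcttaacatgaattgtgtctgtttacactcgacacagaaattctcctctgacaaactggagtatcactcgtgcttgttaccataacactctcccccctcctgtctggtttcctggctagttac
*Erbb4* intron, SMC-only, chr1:68049932-68050132: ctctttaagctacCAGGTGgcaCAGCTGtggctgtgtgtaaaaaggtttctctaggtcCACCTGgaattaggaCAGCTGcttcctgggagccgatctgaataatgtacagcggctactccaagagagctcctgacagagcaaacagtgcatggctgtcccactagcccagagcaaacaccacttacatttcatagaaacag
*Egfr* intron, SMC-only, chr11:16824281-16824481: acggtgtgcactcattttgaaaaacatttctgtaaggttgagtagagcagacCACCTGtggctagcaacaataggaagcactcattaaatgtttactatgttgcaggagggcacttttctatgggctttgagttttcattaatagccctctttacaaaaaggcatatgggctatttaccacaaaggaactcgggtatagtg
The *Egfr* upstream region carried 2 AP-1 sites and the *Erbb4* region 4 E-boxes, whereas the strongest *Igf1r* region of either class carried neither motif.

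Across the 10 windows, *Egfr*, *Met* and *Pdgfra* had more peaks in both non-SMC lines than in both SMC lines, and *Erbb4* and *Fgfr2* had more in both SMC lines. The windows of *Igf1r*, *Pdgfrb*, *Kit*, *Ret* and *Fgfr1* overlapped between the types. Of all 21938 genes, 19% had more peaks in both non-SMC lines and 19.8% in both SMC lines by the same rule, so the 3 and 2 members called were near the share of all genes. The members' median log2 difference (mean SMC against mean non-SMC, scaled counts + 1) was 0.04, against 0.0021 for all genes. Single members lay near the ends of the distribution over genes. Only 0.793% of all genes had a lower log2 difference than *Egfr* and 2.54% a lower one than *Met*, while 98.8% lay below *Erbb4*. These ranks are descriptive, since the members were chosen with earlier results of these data known. The ranks were also not matched for window length, which was 1176 kb for *Erbb4*. With a flank of 10 kb in place of 50 kb, 5 members were called for SMC (18.7% of all genes), and with bases covered by peaks in place of peak numbers also 5 (20.6%). Leaving out 1 library left 1 line of a type to decide the call, and it changed the counts for the members and for all genes alike: without SMC line 1, 5 members were called for non-SMC (36.4% of all genes), and without SMC line 1, SMC line 2 or non-SMC line 2, 4 were called for SMC (28.2% to 42.1% of all genes).

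**Figure D1:**
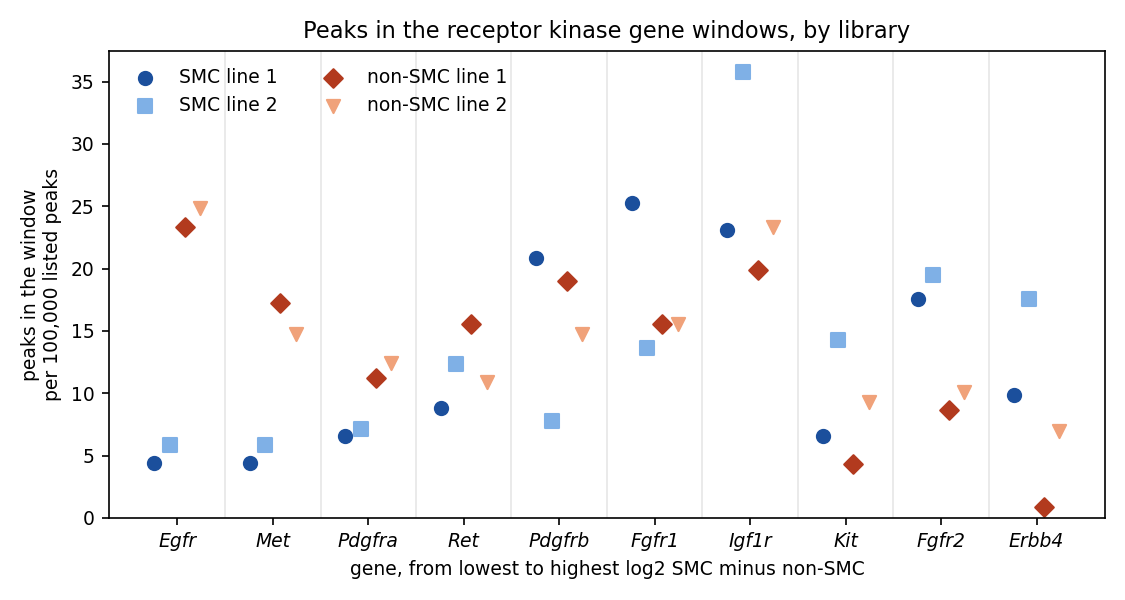
Peaks in each gene's window per 100000 listed peaks of the library (y axis), by gene (x axis, ordered by log2 difference); each point is 1 library, blue for SMC and red for non-SMC. *Egfr* and *Met* are at 4.39 to 5.85 in the SMC lines and at 14.8 to 24.9 in the non-SMC lines, and *Erbb4* shows the opposite order.

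EGFR and ERBB4 belong to one receptor family and differed in opposite directions. *Egfr* (ENSMUSG00000020122.16, chr11:16752203-16918158, plus strand), the receptor for EGF, TGF-alpha and amphiregulin, had 4 and 9 peaks in its window in the SMC libraries and 27 and 32 in the non-SMC libraries. Per 100000 listed peaks these were 4.39 and 5.85 in SMC (mean 5.12 ± 1.03 SD, n = 2 lines) and 23.3 and 24.9 in non-SMC (24.1 ± 1.10 SD, n = 2 lines). The types did not overlap, and the gap was alike in both numbered pairs (−18.9 and −19.0, SMC minus non-SMC). Of strong peaks the window held 2, 2, 16 and 8, or 1.53, 0.76, 3.64 and 3.19 per 10000 strong peaks of the library. Non-SMC peaks were spread over the flank and the gene body, as the map along the window shows, and 12 of its 50 regions were non-SMC-only against 1 SMC-only.

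The highest non-SMC-only *Egfr* region (chr11:16735064-16735809, with its summit 16780 bases upstream of the 5′ end) reached the 97.1 and 99.1 percentile in the non-SMC lines, with a fold enrichment of 13.9 and 13.6. This is the region printed above with 2 AP-1 sites. The single SMC-only region lay in an intron 72178 bases downstream of the 5′ end, at the 94.5 and 90.5 percentile in the SMC lines. At the promoter, SMC line 1 had no peak within 3 kb, and the highest peak of SMC line 2 was at the 68.2 percentile with a −log10 q of 1.94 and a pileup of 8 reads. In the non-SMC lines a single broad peak covered the 5′ end at the 82.4 and 95.9 percentile, with a −log10 q of 18.3 in both and pileups of 32 and 25 reads. The *Egfr* promoter was thus open in both non-SMC lines and weak or not listed in the SMC lines. A region found in all 4 libraries, 199075 bases downstream of the *Egfr* 5′ end, lay within 3 kb of the 5′ end of *Fbxo48*, the other gene that starts in the window, at the 98.2, 98.5, 98.3 and 99.1 percentile. This neighboring promoter was open alike in the 4 lines.

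*Erbb4* (ENSMUSG00000062209.15, chr1:68032186-69108059, minus strand), a neuregulin receptor, had 9 and 27 peaks in the SMC libraries and 1 and 9 in the non-SMC libraries. Per 100000 listed peaks the values were 9.88 and 17.5 in SMC (13.7 ± 5.41 SD, n = 2 lines) and 0.863 and 6.99 in non-SMC (3.93 ± 4.33 SD, n = 2 lines). The types did not overlap on the scaled values, but the lines of a type differed widely, and on raw peak numbers SMC line 1 and non-SMC line 2 were equal at 9. The strong peaks were in the SMC lines only, with 2 and 10 there and none in either non-SMC line. Of 38 regions, 6 were SMC-only and none was non-SMC-only. The highest of them (chr1:68049746-68050183), in an intron near the 3′ end of this long gene, stood at the 95.3 and 98.8 percentile with a fold enrichment of 8.46 and 12.0, and is printed above with its 4 E-boxes. In the promoter window, each SMC line had 3 peaks, at best at the 74.4 and 90.3 percentile, and neither non-SMC line had any. No promoter peak covered the annotated 5′ end itself. The highest summits lay 1497 bases downstream in SMC line 1 and 522 bases upstream in SMC line 2. A weaker peak of SMC line 1 had its summit nearer, 0.329 kb downstream.

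**Figure D2:**
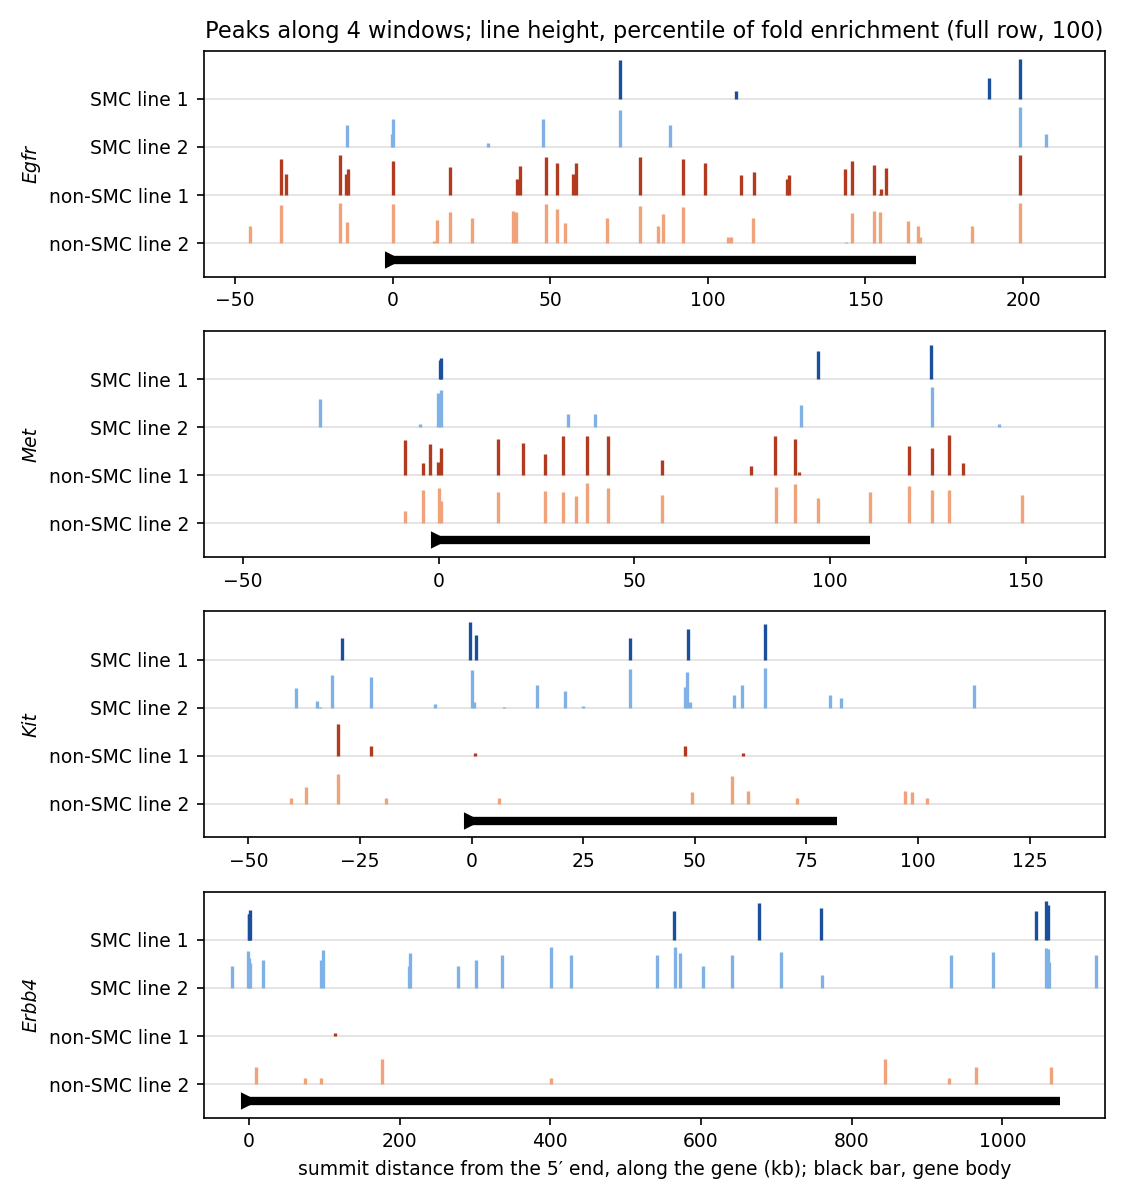
Peaks along the windows of *Egfr*, *Met*, *Kit* and *Erbb4*, with the distance of the summit from the 5′ end on the x axis (kb, along the gene) and 1 row per library; the height of a line is the percentile of fold enrichment in its library, a full row being 100, and the black bar is the gene body. In *Egfr* and *Met* the non-SMC rows hold many shared positions that are empty in the SMC rows, in *Kit* the SMC rows hold the tall peaks at the 5′ end, and in *Erbb4* the tall peaks are in the SMC rows.

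*Met* (ENSMUSG00000009376.15, chr6:17463800-17573980, plus strand) encodes the receptor for hepatocyte growth factor and repeated much of the *Egfr* pattern. Its window had 4, 9, 20 and 19 peaks, and 0, 3, 13 and 8 strong ones. Per 100000 listed peaks these were 4.39 and 5.85 in SMC (5.12 ± 1.03 SD, n = 2 lines) and 17.3 and 14.8 in non-SMC (16.0 ± 1.77 SD, n = 2 lines), a log2 difference of −1.48. Of 29 regions 12 were non-SMC-only and none was SMC-only. The highest non-SMC-only region, an intronic one 37931 bases downstream of the 5′ end (chr6:17501503-17502006), was at the 96.2 and 97.8 percentile with a fold enrichment of 13.1 and 11.7. The added intronic region 91164 bases downstream, whose sequence holds 1 AP-1 site, had a mean percentile of 93.3 and a −log10 q of 17.1 or more in both non-SMC lines. The promoter differed from that of *Egfr*: all 4 libraries had a peak in it, at the 52.0, 91.3, 77.3 and 85.9 percentile. The promoter percentiles overlapped between the types, but these peaks were not all at one place. That of non-SMC line 1 lay 2104 bases upstream of the 5′ end, and that of SMC line 1 was weak, with a −log10 q of 1.23. The 12 non-SMC-only regions lay in introns (8), the upstream flank (2) and the downstream flank (2). A downstream region was also found in all 4 libraries (chr6:17589450-17590070), at its highest in SMC line 2 (99.1 percentile).

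*Ret* (ENSMUSG00000030110.13, chr6:118151745-118197718, minus strand), the GDNF family receptor of neurons and neuroendocrine cells, had 8, 19, 18 and 14 peaks. Per 100000 listed peaks these were 8.79, 12.3, 15.5 and 10.9. The types overlapped, and the numbered pairs went opposite ways. Its window held the highest SMC-only region of all members (chr6:118121398-118122079), at the 98.8 and 99.7 percentile with a fold enrichment of 11.4 and 14.7, and the highest non-SMC-only region of the window (chr6:118126669-118126887, 80.6 and 89.7 percentile) lay 5.02 kb from it. Both were inside the neighboring gene *Csgalnact2* and downstream of *Ret*, so the window does not tell which gene they belong to. The promoter peaks of *Ret* were weak, at the 37.4, 59.6 and 17.3 percentile, and non-SMC line 2 had none.

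*Igf1r* (ENSMUSG00000005533.10, chr7:67952827-68233668, plus strand), the receptor for the insulin-like growth factors, had 21, 55, 23 and 30 peaks, or 23.1, 35.7, 19.9 and 23.3 per 100000 listed peaks. The types overlapped, since SMC line 1 lay just below non-SMC line 2. Strong regions of both kinds were found in its introns. A non-SMC-only region 69140 bases downstream of the 5′ end (chr7:68021511-68022389) reached the 99.3 and 99.1 percentile with a fold enrichment of 17.1 and 13.6, the highest mean of all non-SMC-only regions of the members. An SMC-only region 25.3 kb nearer to the 5′ end (chr7:67996549-67997019) reached the 96.0 and 98.4 percentile with a fold enrichment of 8.86 and 11.3. Of its 98 regions 4 were SMC-only, all of them in introns, and 6 were non-SMC-only, of which 4 lay in introns, 1 in the promoter window and 1 in the downstream flank. Regions of both classes were thus found in a window whose peak numbers overlapped. A promoter peak was listed in all 4 libraries, at the 58.7, 74.1, 54.3 and 77.6 percentile, and none was strong.

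*Kit* (ENSMUSG00000005672.12, chr5:75574916-75656722, plus strand), the receptor for stem cell factor, differed most at its promoter. In SMC line 1 and SMC line 2 a peak (merged region chr5:75574332-75575332) covered the 5′ end at the 92.4 and 93.0 percentile, with a −log10 q of 8.83 and 16.0. In non-SMC line 1 the only promoter peak lay 751 bases downstream at the 6.47 percentile with a −log10 q of 0.4, and non-SMC line 2 had none. This peak at the 5′ end was SMC-only. The window as a whole, promoter included, overlapped between the types: it had 6, 22, 5 and 12 peaks, or 6.59, 14.3, 4.32 and 9.32 per 100000 listed peaks, and was higher in SMC in both numbered pairs. There were 2, 4, 1 and 0 strong peaks. Of 36 regions 4 were SMC-only and 1 was non-SMC-only, an upstream region with an AP-1 site at the 78.4 and 73.3 percentile.

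*Pdgfra* (ENSMUSG00000029231.15, chr5:75152306-75198215, plus strand), the PDGF receptor of many stromal progenitors, had 6, 11, 13 and 16 peaks, or 6.59 and 7.14 per 100000 in SMC and 11.2 and 12.4 in non-SMC. The types did not overlap, but the difference rested on weak peaks. Its log2 difference of −0.71 became 1.04 where strong peaks alone were counted, which left 1, 1, 2 and 0 peaks. The 3 non-SMC-only regions reached a mean percentile of 61.8 at most. None of its promoter peaks covered the 5′ end or passed the 50.6 percentile, and SMC line 2 had none. The strongest region of the window, 3987 bases downstream of the 5′ end, was found in all 4 libraries at the 92.0, 78.7, 73.3 and 74.6 percentile.

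*Pdgfrb* (ENSMUSG00000024620.11, chr18:61045150-61085061, plus strand), the PDGF receptor of pericytes and fibroblasts, showed the reverse situation, with overlapping peak numbers but a difference in strength. It had 19, 12, 22 and 19 peaks, or 20.9, 7.79, 19.0 and 14.8 per 100000, and the numbered pairs went opposite ways. Neither SMC line had a strong peak, whereas the non-SMC lines had 11 and 4. Without the weak peaks the window would be called for non-SMC. Of 54 regions 9 were non-SMC-only and 1 was SMC-only. By place, 4 of the 9 lay in the downstream flank, 2 in the upstream flank, 2 in the promoter window and 1 in an intron. The highest of the 9 lay 34764 bases upstream of the 5′ end (95.4 and 93.3 percentile, fold enrichment of 12.6 and 8.73). At the promoter a peak covered the 5′ end in both non-SMC lines, at the 68.9 and 79.6 percentile with a −log10 q of 14.6 and 6.01. SMC line 1 had no promoter peak, and that of SMC line 2 lay 1154 bases upstream at the 5.14 percentile. The window also holds the 5′ ends of *Slc6a7*, *Cdx1* and *Csf1r*, so it does not tell which gene the flank regions belong to.

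The FGF receptors did not show a strong difference. *Fgfr1* (ENSMUSG00000031565.18, chr8:25518759-25575718, plus strand) had 23, 21, 18 and 20 peaks, or 25.3, 13.6, 15.5 and 15.5 per 100000. The types overlapped, and SMC line 1 alone stood apart from the other libraries. A peak covered the *Fgfr1* 5′ end in all 4 libraries, at the 77.3, 82.8, 76.5 and 88.6 percentile, so its promoter was open in both types. *Fgfr2* (ENSMUSG00000030849.18, chr7:130162451-130266263, minus strand) had 16, 30, 10 and 13 peaks, or 17.6 and 19.5 per 100000 in SMC and 8.63 and 10.1 in non-SMC. The types did not overlap and both pairs went the same way, by 8.94 and 9.39, but the excess lay in weak peaks. Only 0, 2, 3 and 1 peaks were strong, and the log2 difference of 0.91 became −0.42 with these. *Fgfr2* had 3 SMC-only and 3 non-SMC-only regions, none of them above a mean percentile of 76.8.

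Taking the promoters as a group, a peak within 3 kb of the 5′ end was found in all 4 libraries for *Igf1r*, *Met* and *Fgfr1*, in both SMC lines alone for *Erbb4*, and in no member in both non-SMC lines alone. The first pattern was seen in 49.1% of all genes, so the 3 of 10 members lay below that share. Of all genes 3.13% were SMC-only and 2.4% non-SMC-only by this rule, so counts of 1 and 0 of 10 members are close to the share of all genes. With strong peaks alone, *Kit* was SMC-only, and *Egfr*, *Pdgfrb* and *Fgfr1* were non-SMC-only (1.6% and 5.33% of all genes). For *Fgfr1* this came from the threshold, as its SMC peaks had a −log10 q of 3.45 and 4.76. Without non-SMC line 1 the SMC-only count was 4 (6.59% of all genes), and without SMC line 2 the non-SMC-only count was 2 (6.7%).

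**Figure D3:**
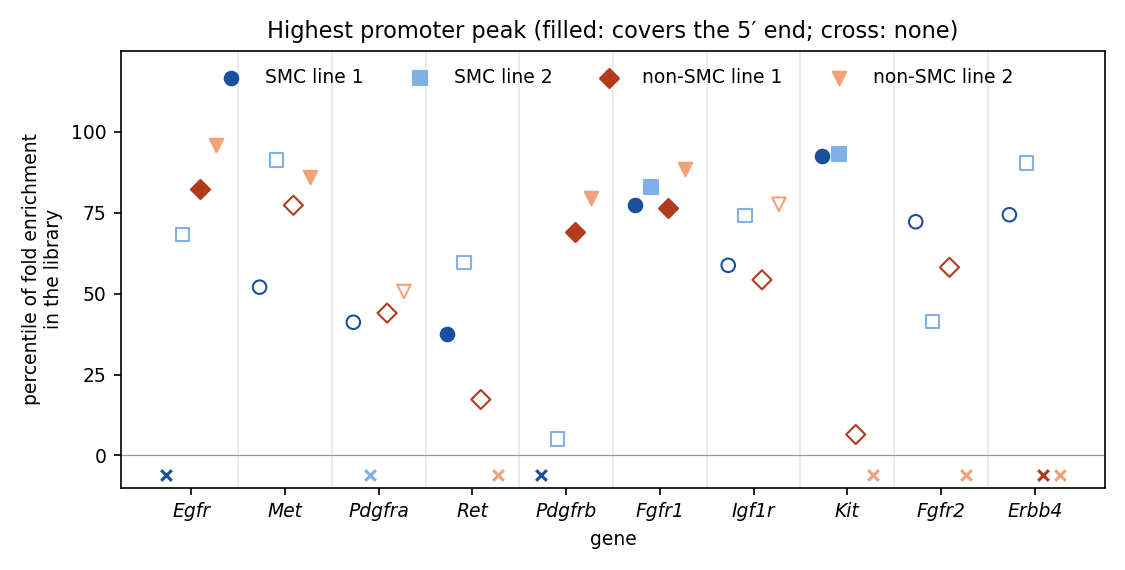
The highest peak within 3 kb of each gene's 5′ end, as its percentile of fold enrichment in the library (y axis), by gene (x axis) and library; filled symbols cover the 5′ end, open ones do not, and a cross below 0 marks a library with no peak. The 5′ end is covered in both non-SMC lines only for *Egfr* and *Pdgfrb*, in both SMC lines only for *Kit*, and in all 4 libraries for *Fgfr1*.

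Counted over all members, 52 of the 491 regions (10.6%, exact 95% binomial interval 8.01% to 13.7%) were non-SMC-only, against 7.33% of all regions. SMC-only regions made up 23 (4.68%, 2.99% to 6.95%), against 4.37% of all regions, and 13 (2.65%, 1.42% to 4.49%) were found in all 4 libraries, against 3.81%. The intervals cover counting error only, and regions of one gene are not independent. The non-SMC-only regions were uneven between the genes, since *Egfr* and *Met* held 24 of the 52 and *Erbb4* none. By place, 27 of the 52 lay in introns, 20 in the flanks and 4 in promoter windows, and of the 23 SMC-only regions 15 lay in introns and 4 in promoter windows. Most regions (73.9%, and 76.9% of all regions) had a peak in 1 library alone. With 1 line left out of a type, the remaining line decides: the non-SMC-only share ran from 12.0% without SMC line 1 to 34.7% without non-SMC line 1, and the SMC-only share from 6.52% without non-SMC line 2 to 38.9% without SMC line 1. The shares of all regions were not computed with a line left out, so these values cannot be set against 7.33% and 4.37%.

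**Figure D4:**
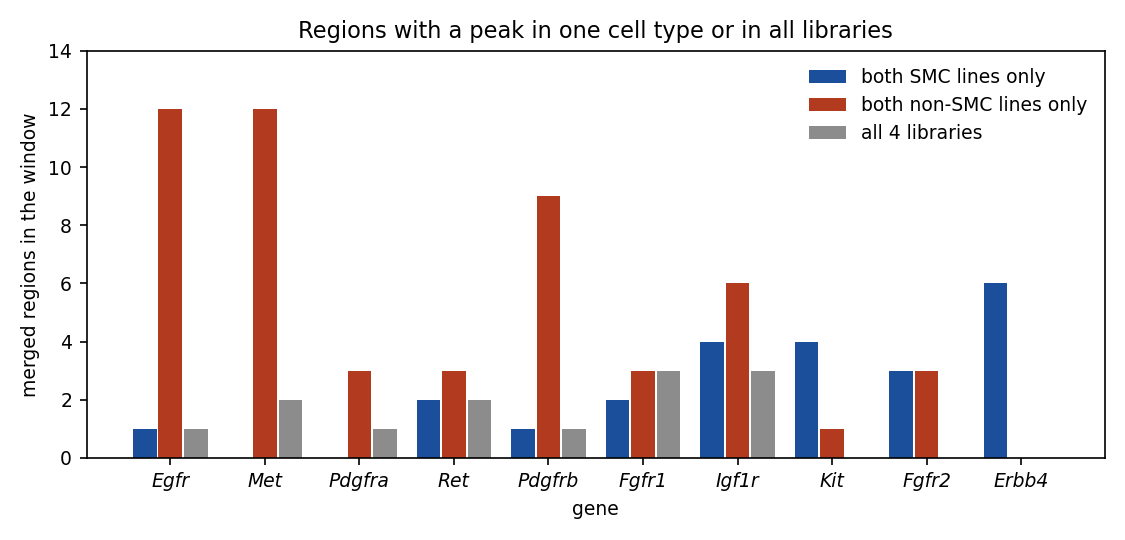
The number of merged regions in each gene's window (y axis) with a peak in both SMC lines only, in both non-SMC lines only or in all 4 libraries, by gene (x axis). *Egfr* and *Met* have 12 non-SMC-only regions each and *Pdgfrb* 9, and *Erbb4* has 6 SMC-only regions and none of the other kinds.

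Motifs were then counted within 100 bases of the summits, on both strands. An AP-1 site was found in 20 of the 52 non-SMC-only regions (38.5%, exact 95% binomial interval 25.3% to 53.0%) and in none of the 23 SMC-only regions (interval up to 14.8%). In all regions of these classes the shares were 46.5% and 4.14%, so each class share lay within the members' interval. Without non-SMC line 1 the non-SMC-only class rested on non-SMC line 2 alone and grew to 149 regions, of which 15.4% had an AP-1 site. *Egfr* had 7 of the 20 and *Met* 6, while none of the 6 non-SMC-only regions of *Igf1r* had one. The E-box was in 11 of the 23 SMC-only regions (47.8%, 26.8% to 69.4%) and 8 of the 52 non-SMC-only ones (15.4%, 6.88% to 28.1%), against 45.7% and 19.6% of all regions of the class. Of the 6 SMC-only regions of *Erbb4* 4 had an E-box. The other motifs searched were TEAD (GGAATG), RUNX (TGTGGT or TGCGGT), SOX (ACAAAG or ACAATG) and NFI (TTGGCA). In non-SMC-only regions they were in 13.5%, 28.8%, 32.7% and 23.1% (19.3%, 31.5%, 27.4% and 16.2% of the class), and in SMC-only regions in 8.70%, 13.0%, 52.2% and 8.70% (9.39%, 15.8%, 40.5% and 16.9% of the class). For these motifs and the E-box, too, the class shares lay within the members' intervals. The intervals are wide, cover counting error only and treat regions of one gene as independent. They therefore cannot show that the members are like their class. Among 32851 RefSeq promoter sequences (GRCm38.p6, 250 bases before to 50 after a start), 5.2% held an AP-1 site and 32.9% an E-box, and of the members with such a sequence *Met* alone held either.

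The local background that each peak was called against was recovered from its fold enrichment and p-value, and is given here relative to the genome background of the library. Its median over a window ran from 1 to 2.1 over the 40 pairs of window and library, and no peak stood on a background over 5.83. In the *Egfr* window the medians were 1.03 and 1 in the SMC lines and 1.32 and 1.16 in the non-SMC lines, and in the *Met* window 1 and 1 against 1.78 and 1.12. The background was thus somewhat higher where these windows had more peaks, and its part in the result was not tested. It was recovered at listed peaks only, so its size cannot be set against the difference in peak numbers. In the *Erbb4* window, which had more peaks in SMC, the medians were 1.21 and 1 in the SMC lines and 1 and 1 in the non-SMC lines.

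Of 25 genes for ligands of these receptors, 11 had more peaks in both non-SMC lines and 2 (*Igf2* and *Kitl*) in both SMC lines, against 19% and 19.8% of all genes. Their median log2 difference was −0.46, against 0.0021 for all genes. The EGFR ligands *Areg* (1.1, 1.95, 6.91 and 10.9 peaks per 100000) and *Ereg* (1.1, 3.25, 10.4 and 11.7) were among them, although their windows overlap and share peaks. *Hbegf*, *Btc* and *Nrg1*, further ligands of the family, were called the same way, whereas *Egf*, *Tgfa*, *Nrg2* and *Nrg4* overlapped (log2 differences of −0.13, 0.18, 0.32 and 0.42). *Hgf*, the ligand of MET, was at 1.1 and 2.6 in SMC and at 6.91 and 5.44 in non-SMC, and its promoter was non-SMC-only. *Gdnf*, a ligand of the RET complex, was at 3.29 and 1.95 in SMC and at 20.7 and 13.2 in non-SMC, although the *Ret* window overlapped. *Kitl*, the KIT ligand, went the other way, at 7.69 and 8.44 in SMC and 4.32 and 6.22 in non-SMC. Neither SMC call held on raw peak numbers. There the types overlapped for *Kitl* (7, 13, 5 and 8), and *Igf2* was tied at 6 in SMC line 1 and non-SMC line 2. *Pdgfb*, called for non-SMC, also overlapped on raw numbers (11, 18, 26 and 16).

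Of 24 other receptor kinases 7 were called for non-SMC and 6 for SMC, against 19% and 19.8% of all genes by the same rule. Their median log2 difference was −0.03. The collagen receptor gene *Ddr2* (6.59, 6.5, 21.6 and 17.1 per 100000) had the largest difference among those called for non-SMC, with a non-SMC-only promoter, and *Mertk*, *Axl*, *Epha2*, *Kdr*, *Flt4* and *Alk* were called likewise. *Erbb2* (9.88, 11.7, 7.77 and 9.32) and *Erbb3* (18.7, 14.9, 9.5 and 10.9), partners of ERBB4 in dimers, were called for SMC, as were *Ror1*, *Ror2* and *Mst1r*. The raw peak numbers of *Erbb2*, *Ror1*, *Ror2* and *Mst1r* overlapped between the types, and those of *Erbb3* did not. Of 6 coreceptors, *Cd44* and *Nrp1* were called for non-SMC (19% of all genes), *Nrp1* with 19, 31, 32 and 31 raw peaks. Of 15 adaptors and feedback inhibitors 6 were called for non-SMC (*Spred1*, *Lrig1*, *Dusp4*, *Dusp6*, *Grb2* and *Spry4*) and 1 for SMC (*Cbl*), against 19% and 19.8% of all genes. On raw peak numbers the types overlapped for *Lrig1*, *Dusp6*, *Grb2* and *Spry4*. All 15 promoters had a peak in all 4 libraries, against 49.1% of all genes. The median log2 difference of these 15 was 0.0093.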

How the data were processed

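ATAC-seq of 2 SMC and 2 non-SMC cell lines was mapped by the authors to mm10 with Bowtie2 2.3.4, duplicates were removed, and peaks were called separately in each library with MACS2 2.1.1 (versions per the submitters' processing notes); the calling settings are not given in the sources used here. The deposited lists give for each peak a fold enrichment over local background (a ratio), a −log10 p-value, a −log10 q-value, a summit and a score, of which the score was not used. Sequencing depth is not in the lists.

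Only the assembled chromosomes were used (1 to 19, X and Y). Counts were scaled to 100000 listed peaks and compared as log2(mean + 1). The gene body was the span of the CCDS transcripts of GENCODE M21 (the gene record for 1607 genes without one), because 1 transcript stretches the *Fgfr2* record to 2.96 Mb. Lists were merged at an overlap of 1 base. Pileup and background were recovered from fold enrichment and p. Named were all members, and per class the region of highest mean percentile, with the sequence of the 4 highest per class that overlap no exon, *Pdgfrb* aside. Steps were tested on simulated data. The members and lists were chosen with earlier results of these data known. Alternatives were stricter lists, other flanks, promoters, overlaps and scalings, each library left out, and a block of the line pair; the gene record was added after seeing the data. Python 3.11.15, pandas 2.3.3, scipy 1.17.1 and pysam 0.24.0 were used.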

Additional observations from a re-analysis of the deposited data

Results flagged for a closer look

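The 2 numbered line pairs went opposite ways in 3 windows, which was not tested because each pair is 1 library against 1. In scaled peaks (per 100000 listed peaks, SMC minus non-SMC), *Pdgfrb* was at 1.87 in pair 1 and −6.97 in pair 2. *Ret* was at −6.75 in pair 1 and 1.46 in pair 2. *Fgfr1* was at 9.72 in pair 1 and −1.90 in pair 2.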

How the results depend on the processing

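With 2 lines a type, depth and peak calling limit the results: a window's count depends on how far down each list goes. *Egfr* and *Met* kept their calls under all 12 alternatives for windows. *Erbb4* lost its call with unscaled counts. *Pdgfra* and *Fgfr2* lost theirs, with the sign of the log2 difference turned (1.04 and −0.42), where peaks had to reach a −log10 q of 5; the cause was not tested. Members called for SMC (2) became 5 with a flank of 10 kb (18.7% of all genes) or with bases covered (20.6%). Treating the numbers as a replicate block, where both pair differences had to have the same sign, gave 3 members for non-SMC and 4 for SMC (26.1% and 29.0% of all genes). The labels call the lines paired, and 2 pairs cannot show whether the numbers pair them.

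The non-SMC-only share of regions became 22.9% at the stricter q (SMC-only 9.38%), 6.91% with a reciprocal overlap of 50% and 7.86% with the gene record as annotated. The shares of all regions were not computed under these settings, so these values cannot be set against the 7.33% and 4.37% of the main setting. Promoters that were non-SMC-only (0) became 3 at the stricter q, 1 with equal list lengths and 1 with a promoter of 2 kb (5.33%, 2.67% and 2.12% of all genes), and SMC-only promoters (1) became 2 with equal list lengths (3.59%). The E-box share of SMC-only regions was 30.4% within 50 bases and 78.3% within 250 bases. All SMC-only regions were counted within 100 bases only (45.7%), so neither value can be set against that share.

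Leaving out 1 library gave 3 to 5 members for non-SMC (28.9% to 36.4% of all genes) and 2 to 4 for SMC (28.2% to 42.1%), 12.0% to 34.7% non-SMC-only and 6.52% to 38.9% SMC-only regions, and 0 to 2 non-SMC-only (3.98% to 6.7% of all genes) and 1 to 4 SMC-only promoters (4.74% to 6.82%). AP-1 sites were then in 15.4% (without non-SMC line 1) to 38.6% (without SMC line 2) of non-SMC-only regions, and E-boxes in 32.1% to 50% of SMC-only regions. For regions and motifs the matching shares of all regions were not computed with a library left out.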
